A study of Mus musculus with 4 samples.

Results

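The Hox gene clusters of the mouse were examined in ChIP-seq peak lists of H1foo, the linker histone of the oocyte, and of somatic H1. The members were the 39 protein-coding genes of RefSeq named Hoxa, Hoxb, Hoxc or Hoxd with a number, of 21774 protein-coding genes on the assembled chromosomes. They lie in 4 clusters: Hoxa on chromosome 6 with 11 genes, Hoxb on chromosome 11 with 10, Hoxc on chromosome 15 with 9 and Hoxd on chromosome 2 with 9. The peaks described are those from the first to the last gene of each cluster, those within 2 kb of each gene, and those in the 200 kb on either side of each cluster. There were 29 H1foo peaks and 7 AE4 peaks inside the clusters, of 97795 H1foo and 47449 AE4 peaks on the assembled chromosomes.

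Hox genes encode homeodomain transcription factors that set the identity of body segments along the head-to-tail axis. Genes of a cluster stand in the order in which they are used along that axis, from group 1 at the anterior end to group 13 at the posterior end, and a cluster's protein-coding Hox genes are read in the same direction. In embryonic stem cells the clusters are held largely silent by Polycomb complexes and are opened by signals such as retinoic acid during differentiation. Linker histones bind the nucleosome where DNA enters and leaves it and help to compact chromatin; H1foo replaces the somatic variants in the oocyte.

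The libraries came from untreated mouse ES cells, of the strain 129S4/SvJae, in which an H1foo-GFP fusion was overexpressed, so both antibodies were used on cells with added H1foo. A rabbit polyclonal antibody against H1foo gave 2 libraries, and the mouse monoclonal antibody AE4, used for somatic H1, gave 2 libraries. Each antibody has 1 deposited peak list with 1 score per peak and no value per library, so there is no replicate error and no test between antibodies. The sources used here do not say if AE4 recognises H1foo as well, or how many clones or cultures were used. Peak lists do not show gene activity, so the stem cell label could not be checked against expressed markers. Read depth is unknown and the H1foo list is the longer, so a gene without a peak is not a gene without the protein.

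Some sequences mark the places to which the results refer. The first set comes from the promoters of the RefSeq table (build GRCm38.p6, which has the coordinates of mm10), each from 250 bases before to 50 bases after a start. Promoters were listed for 22 of the 39 Hox genes, in 24 entries. Hoxa10 is shown because it was the only one of these entries that a peak of either list met, Hoxb1 because a peak began just past it, and Hoxd4 because the highest-scoring peak inside the clusters lay within that gene. Each is written 5′ to 3′ along the gene, and capitals mark bases inside an H1foo peak.
Hoxa10 (chr6:52240805-52241104, minus strand): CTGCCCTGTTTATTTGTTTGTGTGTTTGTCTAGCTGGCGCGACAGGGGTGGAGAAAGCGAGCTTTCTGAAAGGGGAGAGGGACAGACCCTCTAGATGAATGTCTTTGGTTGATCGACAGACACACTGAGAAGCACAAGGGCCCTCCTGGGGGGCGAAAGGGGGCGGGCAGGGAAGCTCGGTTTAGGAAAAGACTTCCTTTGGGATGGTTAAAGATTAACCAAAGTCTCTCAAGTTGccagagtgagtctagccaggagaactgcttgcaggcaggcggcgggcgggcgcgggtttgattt
Hoxb1 (chr11:96365508-96365807, plus strand): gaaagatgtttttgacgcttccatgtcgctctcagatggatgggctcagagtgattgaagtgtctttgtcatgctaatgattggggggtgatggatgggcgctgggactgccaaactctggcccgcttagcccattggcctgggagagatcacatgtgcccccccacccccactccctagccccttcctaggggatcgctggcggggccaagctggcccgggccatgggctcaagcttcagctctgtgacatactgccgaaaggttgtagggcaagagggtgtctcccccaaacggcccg
Hoxd4 (chr2:74721728-74722027, plus strand): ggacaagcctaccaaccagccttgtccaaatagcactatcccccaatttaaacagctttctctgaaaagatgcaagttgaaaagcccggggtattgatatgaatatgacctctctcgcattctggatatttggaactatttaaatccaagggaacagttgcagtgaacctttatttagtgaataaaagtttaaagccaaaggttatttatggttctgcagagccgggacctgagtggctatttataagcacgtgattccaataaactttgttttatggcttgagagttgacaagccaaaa

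The second set is of microRNAs encoded within the Hox clusters, which serve as landmarks of the intervals described. The clusters hold 6 microRNA genes, of which Mir10b lies within the spans of Hoxd4 and Hoxd3 and Mir10a within that of Hoxb3. The 5p products of the miR-196 and miR-10 families are shown with the seed, bases 2 to 8, in capitals.
miR-196a-5p (Mir196a-1 in Hoxb, Mir196a-2 in Hoxc): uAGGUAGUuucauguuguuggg
miR-196b-5p (Mir196b in Hoxa): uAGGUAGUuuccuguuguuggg
miR-10a-5p (Mir10a in Hoxb): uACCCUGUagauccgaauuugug
miR-10b-5p (Mir10b in Hoxd): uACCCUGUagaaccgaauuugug

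Few Hox genes carried a peak, and those that did mostly carried H1foo alone. A gene was counted when any part of a peak met its span extended by 2 kb on either side. An H1foo peak was present at 13 of 39 Hox genes (33.3%), against 59.4% of all protein-coding genes. An AE4 peak was present at 2 of 39 (5.13%), against 46.1% of all protein-coding genes. Both kinds were at 2 Hox genes, Hoxd3 and Hoxd4, H1foo without AE4 was at 11, and neither was at 26 (66.7%, against 36.7% of all genes). No Hox gene had AE4 without H1foo, which was the state of 3.88% of all genes. H1foo without AE4 made up 28.2% of Hox genes and 17.2% of all genes, and both lists together 5.13% and 42.2%. When a peak had to lie within 2 kb of the first or last base of a gene, 11 of 39 Hox genes had H1foo, against 44.9% of all genes, and 1 of 39 had AE4, against 24.1%.

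Hox genes are short, and a short gene offers less room for a peak. The median span was 3.74 kb for Hox genes and 17.2 kb for all protein-coding genes. Among the 3520 protein-coding genes with a span from 2.56 to 7.44 kb, the quartiles of the Hox spans, 54.3% had an H1foo peak and 35.0% an AE4 peak. Hox genes lay below these shares too, at 33.3% and 5.13%. In the genes of like span H1foo without AE4 made up 21.9%, both lists 32.5% and neither 43.2%. The Hox values were 28.2%, 5.13% and 66.7%, so the difference in H1foo without AE4 was smaller than against all genes. This background was added after the data were seen. Hox genes are neighbours and can share a peak, so 39 genes are not 39 independent places. The 13 genes rested on 17 distinct H1foo peaks, 15 inside the clusters and 2 just outside, and the 2 genes with AE4 rested on 2 AE4 peaks.

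The genes with H1foo were spread over the paralogue groups. They were 3 of 8 in groups 1 to 3, which pattern the hindbrain and neck region, 4 of 15 in groups 4 to 8, and 6 of 16 in groups 9 to 13, which pattern the posterior trunk, the limbs and the genital tract. No gene of groups 2, 5, 6 or 12 had a peak of either list. These groups hold only 2, 3, 3 and 2 genes, so their lack of peaks says little. By cluster the genes with H1foo were 5 of 11 Hoxa, 4 of 10 Hoxb, 1 of 9 Hoxc and 3 of 9 Hoxd genes.

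**Figure D1:**
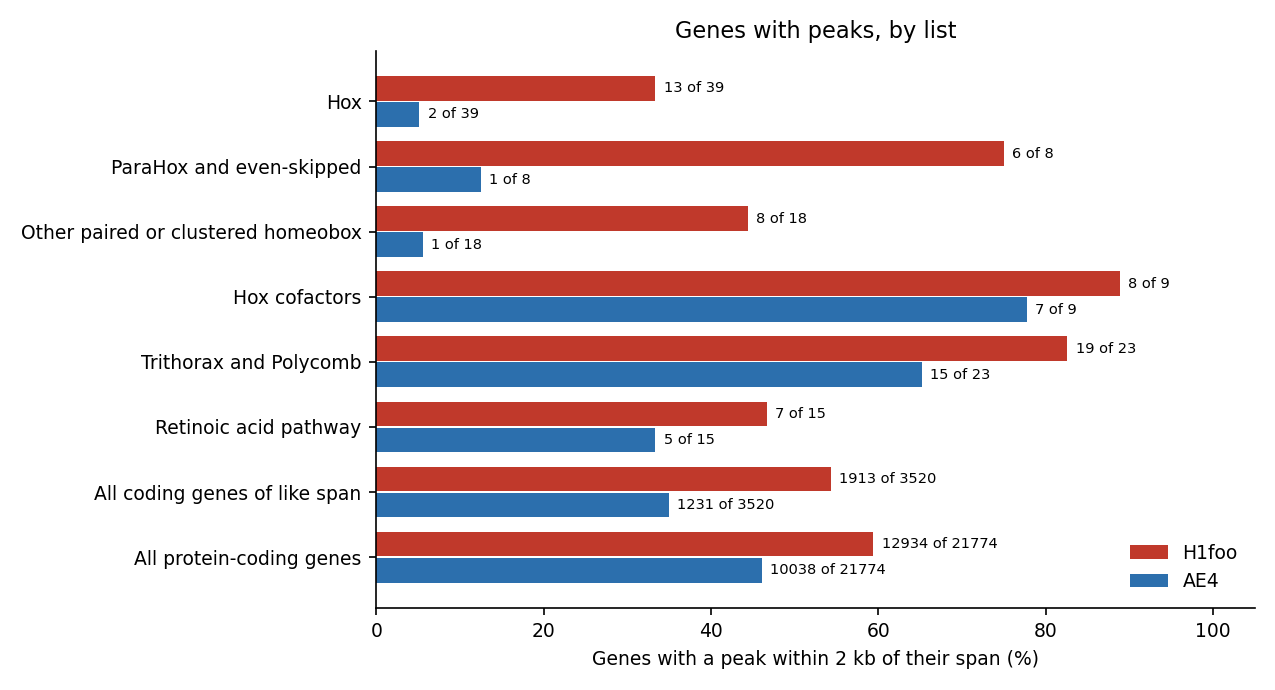
Share of genes with a peak within 2 kb of their span, in percent, for Hox genes, 5 lists of related genes, protein-coding genes of like span and all protein-coding genes; red bars are the H1foo list and blue bars the AE4 list, with counts at the bar ends. The Hox bars stand at 13 of 39 genes (H1foo) and 2 of 39 genes (AE4).

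Peaks inside the clusters mostly scored below the median of their list. The score is the peak caller's own value from the deposited lists, and it is used here only to rank peaks within a list, whose lowest value was 50 in both. The 29 H1foo peaks had a median score of 58.2, with a range from 50.1 to 119.6, against a median of 73.2 over the whole H1foo list. Only 4 of the 29 were above that list median. Low scores were not confined to the clusters. In the flanks with H1foo peaks the median score ran from 55.0 (high-coordinate side of Hoxa) to 84.2 (low-coordinate side of Hoxb). Only the last was above the list median. The 7 AE4 peaks had a median of 57.1 and a range from 53.2 to 78.3, against 63.8 over the AE4 list, and 1 was above it. Widths were modest as well, with a median of 435 bp for H1foo inside the clusters against 560 bp over the list, and 416 bp for AE4 against 466 bp. A score of 100 or more was reached by 2 of the 29 H1foo peaks (26.7% of the whole list) and by none of the 7 AE4 peaks (13.6% of the whole list).

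The 4 clusters differed in how many peaks they held. H1foo had 6 peaks inside Hoxa, 19 inside Hoxb, 3 inside Hoxc and 1 inside Hoxd. Per 100 kb these were 5.69, 10.9, 2.59 and 1.03. AE4 had 5 peaks inside Hoxb and 2 inside Hoxd, and none inside Hoxa or Hoxc. Over the 492.1 kb of the 4 clusters the density was 5.89 per 100 kb for H1foo and 1.42 for AE4.

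These densities can be read against gene-rich sequence elsewhere. Hoxa, Hoxc and Hoxd hold 9 to 11 genes in 96.9 to 115.7 kb, and Hoxb holds 10 in 173.9 kb. Of 24033 fixed windows of 100 kb on the autosomes that do not meet a Hox cluster, 0.474% had 8 or more protein-coding genes. These 114 windows had a median of 28 H1foo peaks (quartiles 13 and 38) and 11.5 AE4 peaks (quartiles 4 and 15.8). Scaled to 100 kb, each Hox cluster lay below the lower quartile of those windows in both lists. Hoxb, which is longer than a window, lay above it as a count, with 19 H1foo and 5 AE4 peaks. Hoxb and Hoxc have fewer than 8 Hox genes per 100 kb, so these windows are more gene-rich than those 2 clusters. Over all 24033 windows the mean was 4.09 H1foo and 1.97 AE4 peaks and the median was 0 for both, since 52.5% had no H1foo peak and 53.7% no AE4 peak.

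**Figure D2:**
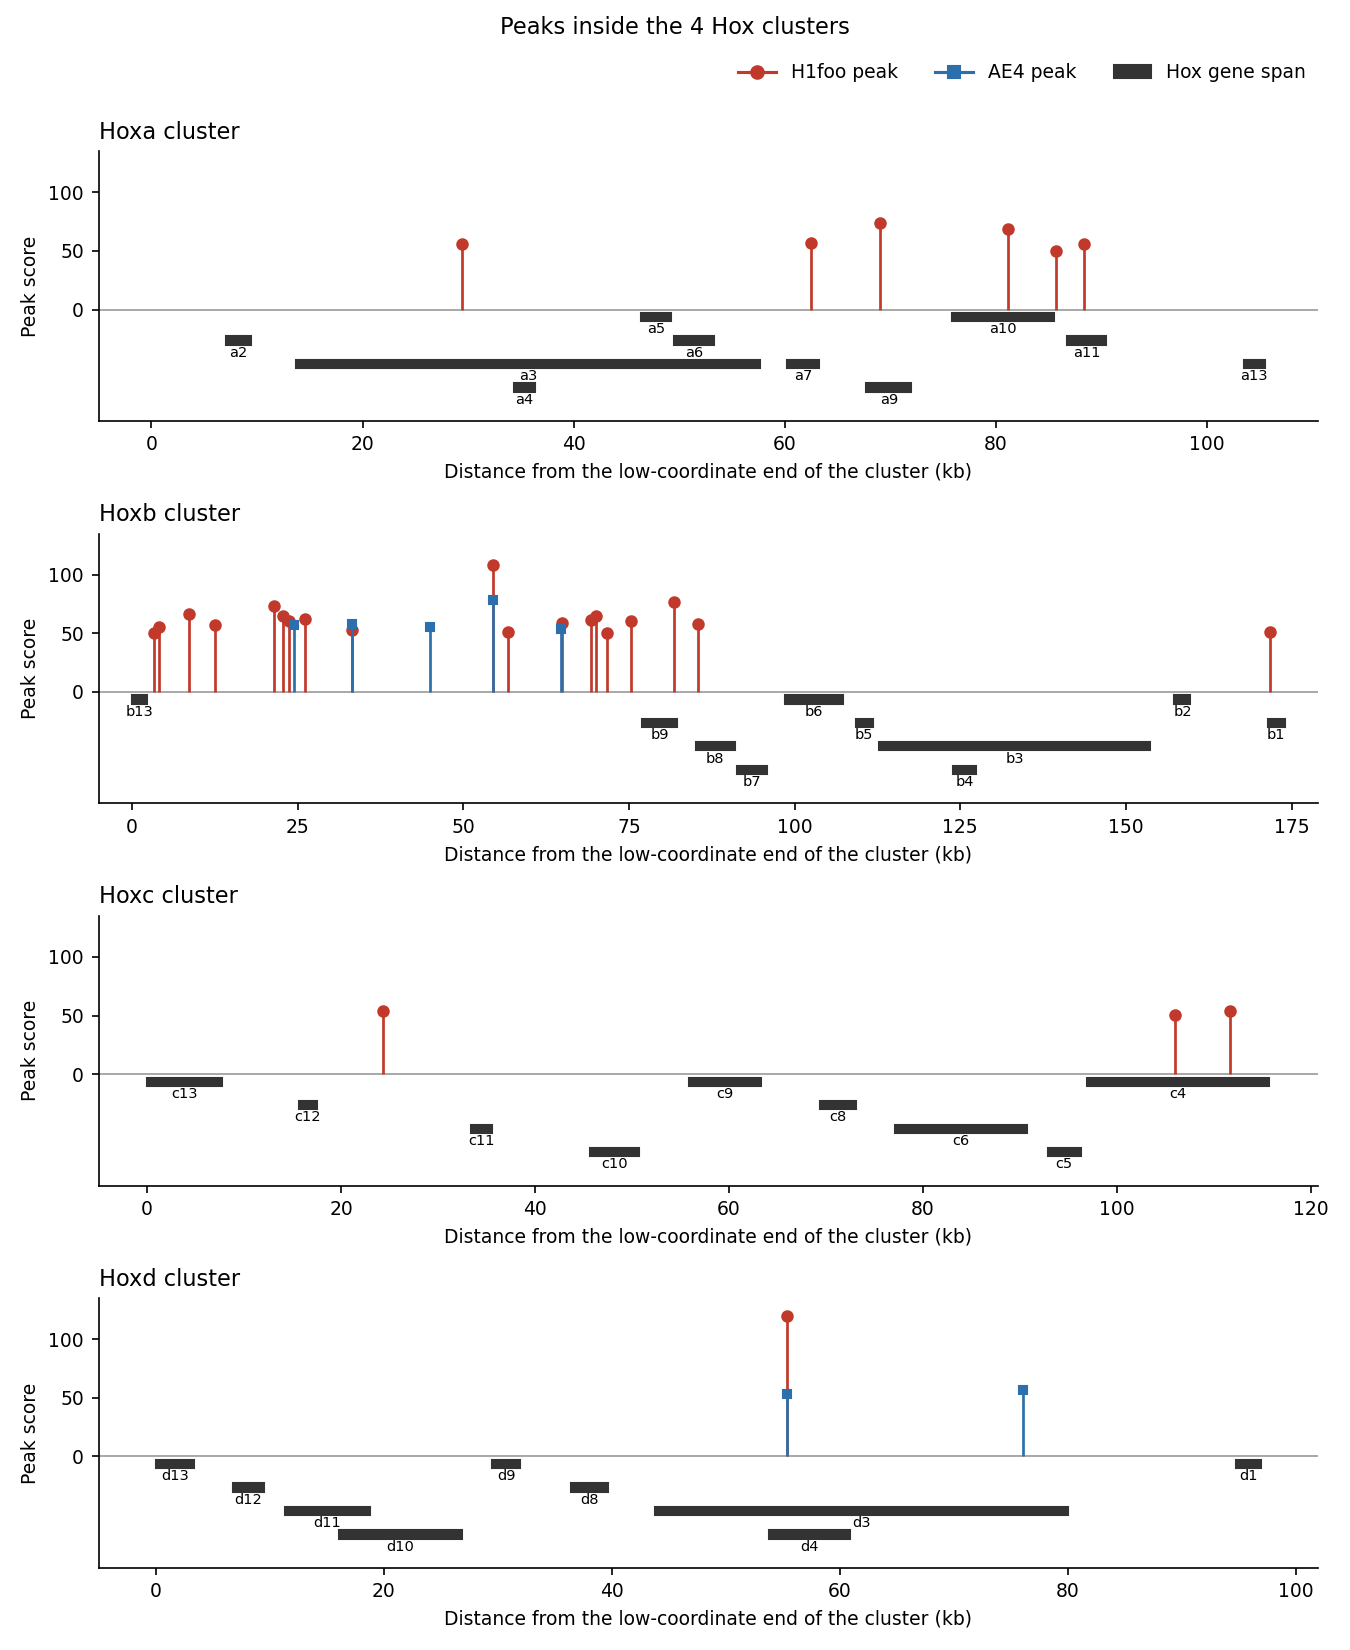
Peaks inside each Hox cluster by position in kb from its low-coordinate end; the height of a stem is the peak score in its own list (red circles H1foo, blue squares AE4), and black bars below 0 are gene spans, placed on 4 levels for legibility, with 1 gene not drawn. Hoxb peaks gather between b13 and b9, and long parts of Hoxb and Hoxc have none.

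In the Hoxb cluster the peaks stood almost wholly in 1 interval without Hox genes. Between Hoxb13, a posterior gene set apart from the others, and Hoxb9 lie 74.7 kb without a protein-coding gene. That interval held 16 of the 19 H1foo peaks and all 5 AE4 peaks of the cluster, or 21.4 H1foo and 6.69 AE4 peaks per 100 kb. The 96.9 kb from Hoxb9 to Hoxb1, which hold 9 Hox genes, had 3 H1foo peaks and no AE4 peak, or 3.10 and 0 per 100 kb. The division was made after the data were seen. Without the interval, the 4 clusters held 13 H1foo and 2 AE4 peaks.

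The strongest peaks of that interval lay at a pseudogene. The H1foo peak at chr11:96248502-96249245, with a score of 108.4, and the AE4 peak at chr11:96248509-96249104, with a score of 78.3, both met Gm11539, a pseudogene at 96248598 to 96249228. It was the highest score of either list within the Hoxb cluster. Reads of a pseudogene can come from its parent gene, and the placement of these reads was not tested. Without peaks at Gm11539 the clusters held 28 H1foo and 6 AE4 peaks. Further H1foo peaks of the interval met the lncRNA genes Gm30134 (1 peak), Gm53 (3 peaks) and Gm51876 (1 peak). The microRNA gene Mir196a-1 stood 516 bp from its nearest H1foo peak and 5835 bp from its nearest AE4 peak.

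From Hoxb9 onwards single H1foo peaks lay within 3 genes. Hoxb9 had a peak with a score of 76.4 inside its span and a second with 60.5 at 1423 bp from it. Hoxb8 had a peak with a score of 58.2 at the low-coordinate end of its span. Hoxb1, the most anterior gene and a regulator of hindbrain segments, had a peak with a score of 51.3 that began 98 bp downstream of the listed start, just past the promoter printed above. Hoxb13, at the other end, had none inside its span but had H1foo peaks at 742 and 1550 bp from it, with scores of 50.1 and 55.6. The span 96279973 to 96365855, which is 85.9 kb or 49.4% of the cluster, had no H1foo peak and holds Hoxb7, Hoxb6, Hoxb5, Hoxb4, Hoxb3, Hoxb2 and part of Hoxb8, along with Mir10a, 37193 bp from the nearest peak. All 9 genes from Hoxb9 to Hoxb1 lay in 1 stretch of 260.2 kb without an AE4 peak.

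In the Hoxa cluster H1foo peaks lay within 5 genes. They met the spans of Hoxa3 (score 56.2), Hoxa7 (56.9), Hoxa9 (73.9), Hoxa10 (68.4) and Hoxa11 (55.5). Hoxa9 and Hoxa10, regulators of blood progenitors and of the uterus among other tissues, thus carried the highest scores of this cluster. A sixth peak, at chr6:52240869-52241260, lay between Hoxa10 and Hoxa11, within 2 kb of both. It covered 236 of the 300 bases of the Hoxa10 promoter printed above, with 7 of its 12 CpG dinucleotides, and had a score of 50.3. That rank, 96685 of 97795, is near the foot of the H1foo list. The other listed promoter of Hoxa10, at chr6:52234890-52235189, met no peak and lay 1183 bp from the nearest H1foo peak.

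The remaining 6 Hoxa genes had no peak within 2 kb. Hoxa2 lay in a stretch of 44.1 kb without H1foo, at 19.8 kb from the nearest peak, and Hoxa4, Hoxa5, Hoxa6 and Hoxa13 were also without one. The Hoxa3 span of 44009 bp runs over Hoxa4, Hoxa5 and Hoxa6, and its peak lay 4641 bp from Hoxa4, so a peak in this span need not be near the start of Hoxa3. All 11 genes lay in 1 stretch of 318.0 kb without an AE4 peak. Hoxa2 was 22.3 kb and Hoxa13 118.8 kb from the nearest AE4 peak.

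The Hoxc cluster had H1foo peaks at Hoxc4 and at Hotair and none between them. The span of Hoxc4 met peaks with scores of 50.2 and 53.9, and another lay within 2 kb of the gene, outside the cluster. The third peak inside, at chr15:102945196-102945720 with a score of 53.7, met Hotair, the lncRNA gene between Hoxc12 and Hoxc11, and no Hox gene. Between these lay 81.2 kb or 70.1% of the cluster without H1foo, with Hoxc11, Hoxc10, Hoxc9, Hoxc8, Hoxc6 and Hoxc5, and with Mir196a-2 and Mir615. Hoxc8, in the middle, was 32.6 kb from the nearest H1foo peak. All 9 Hoxc genes lay in a stretch of 235.9 kb without an AE4 peak.

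The Hoxd cluster held 1 H1foo peak, and it had the highest score of any inside the 4 clusters. The peak at chr2:74723312-74723839 had a score of 119.6, rank 17644 of 97795, and lay within Hoxd4, whose span is itself inside that of Hoxd3. It began 1334 bp downstream of the Hoxd4 start whose promoter is printed above. An AE4 peak with a score of 53.6, at 74723354 to 74723753, lay wholly within it, and Mir10b stood 2231 bp from the H1foo peak. A second AE4 peak with a score of 57.1, at 74744019 to 74744480 in the Hoxd3 span, was 20.2 kb from any H1foo peak. Hoxd13, which patterns digits, had an H1foo peak with a score of 56.5 at 614 bp before its start, outside the cluster. Hoxd12, Hoxd11, Hoxd10, Hoxd9, Hoxd8 and Hoxd1 had no peak within 2 kb, and no H1foo peak lay in the 268.7 kb from the Hoxd4 peak through Hoxd1 to beyond Mtx2.

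Over the 4 clusters the peaks were not gathered in Hox gene spans. Spans made up 56.6% of the cluster sequence and met 11 of 29 H1foo peaks (37.9%) and 2 of 7 AE4 peaks (28.6%). This share was set by Hoxb, where spans made up 43.2% of the sequence and met 3 of 19 H1foo peaks. In Hoxa 5 of 6 H1foo peaks met a span and spans made up 69.8% of the sequence, in Hoxc 2 of 3 with 55.1%, and in Hoxd 1 of 1 with 67.9%. Of 25 lncRNA genes that meet the clusters, 7 had an H1foo peak in their span and 1 had an AE4 peak. None of the 6 microRNA genes had either. No share over all lncRNA or microRNA genes was computed, so these counts do not show a trait of the clusters.

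**Figure D3:**
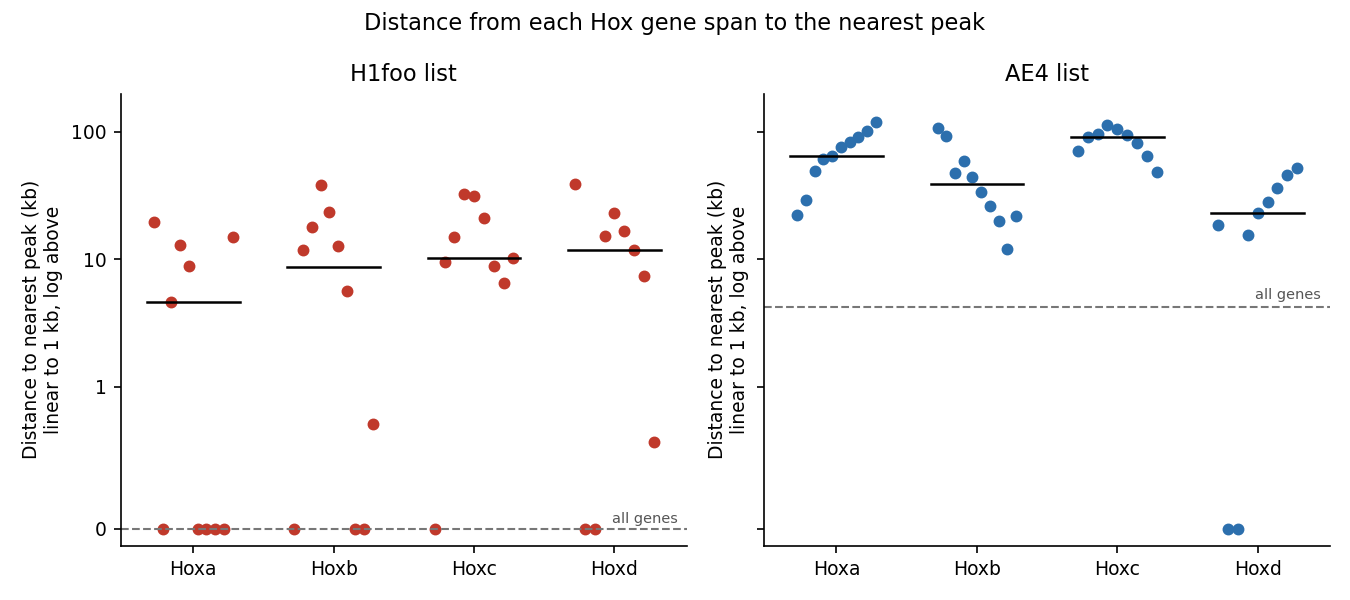
Distance in kb from each Hox gene span to the nearest peak, by cluster, with genes in order of paralogue group from left to right; points at 0 are genes that meet a peak, black lines are cluster medians, dashed lines the median of all protein-coding genes, and the axis is linear up to 1 kb and logarithmic above. Only Hoxd3 and Hoxd4 meet an AE4 peak, and the other genes drawn lie 12001 bp or more from one; 1 gene is not drawn but counts in the medians.

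Distances were also measured without a window. The median distance from a Hox gene to the nearest H1foo peak was 9.47 kb, against 0 for all protein-coding genes and 0.445 kb for those of like span. To the nearest AE4 peak it was 49.6 kb, against 4.27 kb and 7.58 kb. The cluster medians for H1foo were 4.64 kb in Hoxa, 8.73 kb in Hoxb, 10.2 kb in Hoxc and 11.9 kb in Hoxd, and for AE4 they were 64.8, 38.8, 90.8 and 23.1 kb in the same order.

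Promoters of Hox genes gave 1 entry of 24 that met an H1foo peak (Hoxa10) and none that met an AE4 peak. Of 21263 promoter entries of protein-coding genes, 13.5% met an H1foo peak and 2.36% an AE4 peak, so the absence of AE4 from 24 entries says little. The shown promoters differed in composition. Hoxa10 had 54.3% G and C bases, Hoxb1 59.3% with 10 CpG dinucleotides and Hoxd4 39.7% with 4. Since 22 of 39 genes had an entry, no summary of base composition over Hox promoters is given. The motif TTTATG, a core bound by Cdx proteins, was searched on both strands. It was present 2 times in the Hoxd4 promoter and in neither the Hoxa10 nor the Hoxb1 promoter shown. It was in 20.8% of the 24 Hox entries (those with it were of Hoxa7, Hoxb8, Hoxd3, Hoxd4 and Hoxd11) and in 9.71% of all entries. With so few Hox entries no difference is read from these shares, which describe letters and not binding.

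Between the clusters and the sequence beside them, densities showed no direction common to all 4 clusters. Inside the clusters the density was 5.89 H1foo and 1.42 AE4 peaks per 100 kb, and over the 8 flanks of 200 kb it was 5.75 and 1.5. This likeness depended on the flank width. Flanks of 100 kb had 6.0 and 1.25, and flanks of 500 kb had 7.325 and 3.08, both above the values inside. The values inside rested on Hoxb: they were 3.13 H1foo and 0.482 AE4 peaks per 100 kb without Hoxb13 and the interval up to Hoxb9, and 3.14 and 0.629 over the 3 clusters other than Hoxb. By cluster, Hoxa had 5.69 H1foo peaks per 100 kb inside and 2.25 in its flanks, Hoxb 10.9 and 9.5, Hoxc 2.59 and 10.5, and Hoxd 1.03 and 0.75. The whole chromosomes, beyond their first 3 Mb, had 2.10 for chromosome 6, 8.09 for chromosome 11, 4.28 for chromosome 15 and 5.10 for chromosome 2. Hoxa was thus denser in H1foo than its chromosome, and Hoxc and Hoxd less dense. For Hoxb the direction turned with the interval between Hoxb13 and Hoxb9: the whole cluster was denser than chromosome 11, and the stretch from Hoxb9 to Hoxb1, at 3.10 per 100 kb, was less dense. For AE4 the densities inside were 0, 2.87, 0 and 2.06, against 1.5, 2.25, 2 and 0.25 in the flanks. Chromosomes 6, 11, 15 and 2 had 1.16, 3.46, 1.81 and 2.36 AE4 peaks per 100 kb. Each cluster was thus less dense in AE4 than its chromosome, though the interval between Hoxb13 and Hoxb9, at 6.69, was denser.

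**Figure D4:**
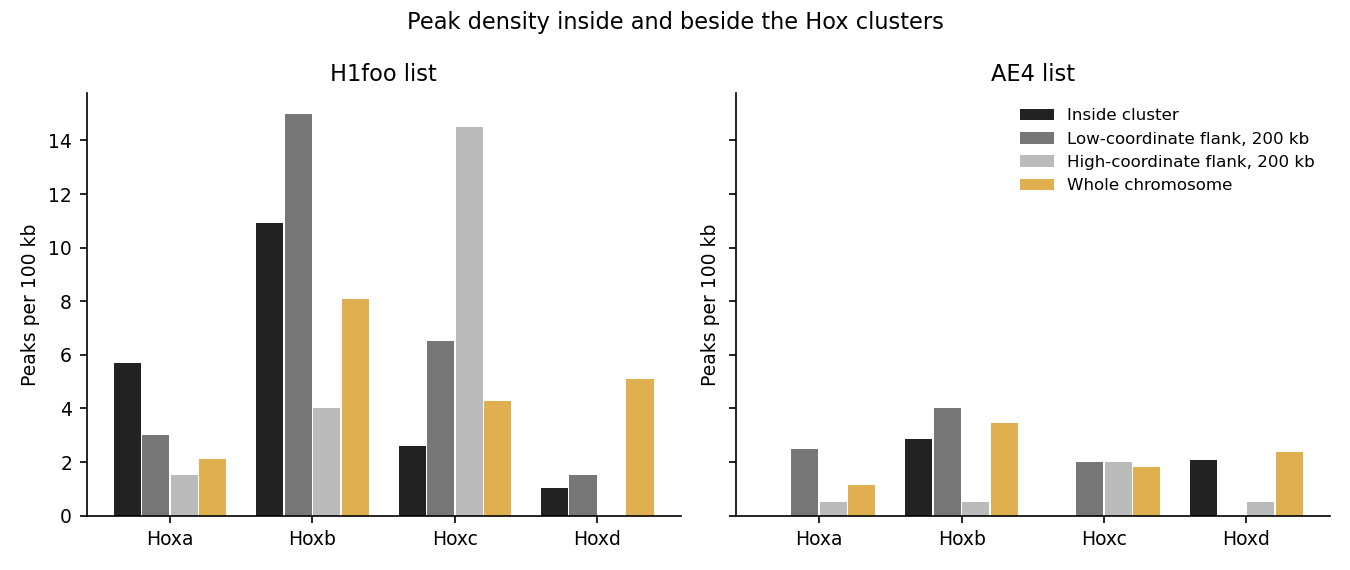
Peaks per 100 kb inside each Hox cluster, in the 200 kb on its low-coordinate and high-coordinate sides and over its whole chromosome beyond the first 3 Mb, for the H1foo list on the left and the AE4 list on the right. Hoxc is less dense in H1foo than either flank, and Hoxa denser than both.

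The flanks of a cluster could differ widely. Hoxb had 30 H1foo and 8 AE4 peaks beyond Hoxb13, where 7 protein-coding genes lie, and 8 and 1 beyond Hoxb1, where Skap1 lies. The highest H1foo score there, 314.4, lay in Gip, which encodes an incretin hormone, and the highest AE4 score, 124.9, in Ttll6, a tubulin glutamylase gene. Both of these peaks overlapped a peak of the other list. Beyond Hoxb1 the highest scores were 111.2 for H1foo, 15945 bp from Skap1, and 61.9 for AE4, within it.

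Hoxc had 29 H1foo and 4 AE4 peaks beyond Hoxc4, with the highest scores, 250.4 and 84.2, at overlapping peaks near Smug1, a DNA repair glycosylase gene. Cbx5, which encodes the heterochromatin protein HP1 alpha and lies in the same flank, had 1 peak of each list, with scores of 63.8 and 60.2. Beyond Hoxc13 there were 13 H1foo and 4 AE4 peaks, with the highest scores, 120.6 and 73.7, at overlapping peaks nearest to Calcoco1.

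The flanks of Hoxa and Hoxd held fewer H1foo peaks than those of Hoxb and Hoxc, with 9 and 3 against 38 and 42. On the low-coordinate side of Hoxa lay 6 H1foo and 5 AE4 peaks, and the highest of each, with scores of 107.2 and 76.1, overlapped at 57.3 and 57.2 kb from the cluster. Beyond Hoxa13 lay 3 H1foo peaks and 1 AE4 peak, with highest scores of 67.1, 20.2 kb from Hoxa13, and 51.5, nearest to Hibadh. Beyond Hoxd13 lay 3 H1foo peaks and no AE4 peak, with the highest score, 142.0, at 4929 bp from Evx2. Beyond Hoxd1 lay no H1foo peak and 1 AE4 peak, with a score of 62.8, in Mtx2. These flanks hold few protein-coding genes, 1 on each side of Hoxa and 2 and 1 at Hoxd. The Hoxc flanks hold few as well, 1 beyond Hoxc13 with 13 H1foo peaks and 2 beyond Hoxc4 with 29. A link between the number of genes and the number of peaks was not tested.

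Sharing between the lists was rare for H1foo peaks and common for AE4 peaks, as over the genome. Inside the clusters 4 of 29 H1foo peaks (13.8%, Wilson 95% interval 5.50 to 30.6%) had 1 bp or more in common with an AE4 peak, against 24.1% of all H1foo peaks. The AE4 peaks overlapped H1foo in 4 cases of 7 (57.1%, interval 25.05 to 84.2%), against 51.2% of all AE4 peaks. The intervals cover counting error only and take peaks as independent, and both include the value of the whole list. In the flanks the shared peaks were 12 of 92 for H1foo (interval 7.62 to 21.4%) and 12 of 24 for AE4 (interval 31.4 to 68.6%). Pooled over the flanks, the H1foo interval lies below the 24.1% of the whole list, but the interval of each cluster's own flanks includes that value. Neighbouring peaks of 1 list are not independent, so no difference is read from the pooled interval.

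Genes related to Hox were read in 5 lists, all of whose 73 members were matched. The ParaHox and even-skipped genes, close relatives of Hox, had H1foo at 6 of 8 and AE4 at 1 of 8. Cdx1, which regulates Hox genes, had AE4 with a score of 103.4 and the list's highest H1foo score, 137.1; Cdx2, a regulator of Hox genes and of trophectoderm, followed with an H1foo score of 81.3. Evx1, beside Hoxa13, had neither, and Evx2, beside Hoxd13, had 1 H1foo peak with a score of 68.2. Other paired or clustered homeobox genes, among them genes of the Dlx and Irx families, had H1foo at 8 of 18 and AE4 at 1 of 18, Six5 (AE4 score 79.1). Six5 and Irx6 had the highest H1foo scores of this list, 85.5 and 82.1. With shares of 44.4% and 5.56%, this list was low in AE4 as Hox genes were, also beside the 35.0% of genes of like span. The median spans of these lists were 6.05 kb (ParaHox and even-skipped) and 5.34 kb (other homeobox).

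Genes that act with or on Hox genes were read in the remaining 3 lists, beside the 59.4% of all protein-coding genes with H1foo and the 46.1% with AE4. The cofactors of the Pbx, Meis and Pknox families, homeodomain proteins that bind DNA beside Hox proteins, had H1foo at 8 of 9 (88.9%) and AE4 at 7 of 9 (77.8%). The highest cofactor scores were 465.6 for H1foo and 361.2 for AE4 at Pbx4, while Pknox1 had 175.9 for H1foo. AE4 scores at other cofactor genes were 108.6 at Pknox2, 102.5 at Pbx2 and 58.5 at Pknox1. Meis1 had neither. These genes are long, with a median span of 139.2 kb, so their counts are not comparable with those of Hox genes.

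Trithorax and Polycomb genes, whose proteins keep Hox genes active or silent, had H1foo at 19 of 23 (82.6%) and AE4 at 15 of 23 (65.2%). The highest H1foo scores were 409.5 at Pcgf2 and 209.3 at Cbx6, both of Polycomb complex 1. The highest AE4 scores were 124.1 at Kmt2b, a histone H3 lysine methylase, 107.6 at Cbx7, 90.7 at Ring1, 86.9 at Kmt2a and 81.0 at Ezh1. Retinoic acid pathway genes had H1foo at 7 of 15 (46.7%) and AE4 at 5 of 15 (33.3%). Both shares were below those over all genes, but with 15 genes no difference is read from them. The receptor genes Rara and Rarg had the highest H1foo scores, 316.8 and 235.0, and Rara also the highest AE4 score, 121.8. AE4 was also present at Rxra (85.4), Crabp2 (75.3), Rxrb (68.8) and Rxrg (64.5). Of the 15 genes 8 had no peak of either list, among them both the Cyp26 genes, whose enzymes degrade retinoic acid, and the Aldh1a genes, whose enzymes make it. The median spans of these lists were 26.3 and 26.7 kb.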

How the data were processed

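ChIP-seq reads of 4 libraries had been aligned with Bowtie 1.1.2 to mm10, per the submitters' processing notes, and peaks called with MACS, per the file headers. The sources used here name no input control and no way in which the pair of libraries was merged. The score per peak is deposited by the authors with no scale named. From these lists, starts were counted from 1 and peaks on 21 assembled chromosomes kept. Gene spans came from a RefSeq table of GRCm38.p6, without 113 protein-coding genes on scaffolds. The table gives no strand; starts came from the promoter table. Overlap meant 1 bp or more. Counts, densities, distances and gaps were computed with Python 3.11.15 and pandas 2.3.3, and the interval code was checked on simulated intervals. No test was run, as each antibody has 1 list. Members and lists were chosen with earlier results of these data known. Named outside Hox were the genes nearest to the highest-scoring peak of each flank and list, list members with AE4 (the 5 highest where more) and the 2 highest for H1foo. Evx1, Evx2, Cbx5, Meis1 and the Cyp26 and Aldh1a genes were named after their values were seen. The alternatives were windows of 1 and 5 kb, gene boundaries, peak centres, other flanks and overlaps, and a score of 100 or more. Some genes that these rules name are not reported here, though they count in all totals.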

Additional observations from a re-analysis of the deposited data

How the results depend on the processing

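No paired analysis was possible because the deposited lists hold no value per library; for the same reason no library could be left out. Windows of 1 or 5 kb and peak centres left the numbers of Hox and related genes with peaks within 1.5 times. A minimum score of 100 moved every value that could be computed by more than 1.5 times. For Hox genes it left 2 with H1foo and 0 with AE4, for peaks inside the clusters 2 and 0, for the related genes 20 and 7, and for the flanks 1.38 and 0.125 peaks per 100 kb. Over the whole lists 26.7% of H1foo and 13.6% of AE4 peaks reached that score. The share of all protein-coding genes at that score was not computed, so these gene counts have no background. The share of H1foo peaks that were shared inside the clusters became 0, that of AE4 could not be computed with no peak left, and the median distances became 69.0 kb and 882.1 kb. At gene boundaries alone AE4 was at 1 Hox gene and at 16 related genes. Flanks of 500 kb had 7.325 H1foo and 3.08 AE4 peaks per 100 kb, both above the 5.89 and 1.42 inside the clusters. Added after the data were seen, leaving out the interval between Hoxb13 and Hoxb9 gave 13 H1foo and 2 AE4 peaks. Of 45 alternative values 29 stayed within 1.5 times. The unknown depth limits every count, most of all where scores are near 50.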
